A study of Sus scrofa with 16 samples.

Results

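The miRNAs miR-23a, miR-27a, miR-23b, miR-27b and miR-24 were followed in small-RNA libraries of sow endometrium, the lining of the uterus. Each was taken as the reads of 20 to 26 nt that share the first 20 nt of its 3p arm, so that 5 of the 23707 groups of reads formed in this way in the whole data set are described. The tissue came from 15 adult sows on day 10 of pregnancy, and its RNA was sequenced as 16 libraries. From insemination on, 4 control sows received only the ethanol carrier in their feed (0 µg), and the others received oestradiol (E2) by mouth at 0.05 (3 sows), 10 (4 sows) or 1000 (4 sows) µg per kg body weight per day. Tissue of sow 7, in the 0.05 group, was extracted 2 times, and both libraries were summed into 1 replicate. All sows were pregnant, the uterus of each was flushed before sampling, and whole endometrium was used, so that fewer cells of a type and less RNA per cell cannot be told apart.

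A miRNA is cut from a hairpin precursor, and 1 arm of the hairpin is usually kept while the other, the passenger arm, is lost. It guides silencing proteins to messenger RNAs that pair with its seed, nucleotides 2 to 8, so the a and b forms of a miRNA, which share the seed, are expected to share most targets. The genes of miR-23, miR-27 and miR-24 lie side by side at separate places in mammalian genomes, an a cluster and a b cluster, and each cluster is transcribed as 1 precursor RNA. Both clusters are known for their role in endothelial cells and blood vessel growth. In the RefSeq gene table for the pig (Sscrofa11.1), MIR23A, MIR27A and MIR24-1 followed one another with 0 genes between neighbours. MIR24-2, MIR27B and MIR23B did so too, inside the gene C10H9orf3. Both miR-24 genes give the same mature 3p arm, so its reads cannot be split between the clusters.

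The most abundant read of each miRNA over all libraries is shown because the a and b forms are told apart by a single base near the 3′ end. Capitals mark the seed and, for miR-23 and miR-27, base 19.
miR-23a-3p: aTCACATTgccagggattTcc
miR-23b-3p: aTCACATTgccagggattAccact
miR-27a-3p: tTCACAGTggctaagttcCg
miR-27b-3p: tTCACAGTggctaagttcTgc
miR-24-3p: tGGCTCAGttcagcaggaac
Over their first 20 nt, counted from 1 at the 5′ end, the a and b forms of miR-23 differed by 1 base (T19A, the a form first) and those of miR-27 by 1 base (C19T). The seeds of miR-23 and miR-27 differ from each other, and that of miR-24 is unlike both. The names rest on the seed and the base at position 19 as general knowledge gives them, since no table of mature miRNAs was used here. Reads with neither base at position 19 give a rough background of base errors, and not the rate at which 1 form is misread as the other. They made up 0.314% of the miR-23 reads (0.128 to 0.425% over sows) and 0.113% of the miR-27 reads (0.0755 to 0.157%), far below the share of the rarer form of either miRNA.

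The libraries held 4497096 to 14945018 reads, of which 46.7 to 78.4% were 18 to 26 nt long. By read length the sows fell into 3 classes, with both libraries of sow 7 summed. Class A (sows 1, 2, 5, 8, 9 and 12) had under 8% of reads at 17 to 19 nt, class B (sows 3, 4, 7, 10, 11 and 15) had more short reads and under 5% at 40 to 49 nt, and class C (sows 6, 13 and 14) had more of both. Taken alone, library 7a of sow 7 was of class B (2.11% at 40 to 49 nt) and library 7b of class C (6.38%). No class C sow was in the control or 10 µg group. Seed families known from epithelium (miR-200b, miR-200c and miR-429, 13971 to 20237 RPM, reads per 1000000 reads of 18 to 26 nt), smooth muscle and stroma (miR-143-3p, 39449 to 122130) and endothelium (miR-126-3p, 3955 to 8059) were abundant in every sow. Of the other families looked up for these tissues, miR-126-5p (152 to 324) and miR-214-3p (114 to 367) were far lower. The rest, miR-200a and miR-141, miR-145-5p, miR-199-3p and miR-199-5p, stood at 2017.5 or more. Families of liver (miR-122-5p, 18.6 to 71.9) and brain (miR-124-3p, 0.877 to 3.65) were low, though miR-9-5p, also known from brain, stood at 968 to 2466. Muscle miR-1 and miR-206 stood at 164 to 1242 and red cell miR-451 at 873 to 3499. Over 9951 groups tested, edgeR called 0 groups at any dose. At an unadjusted p under 0.05 it gave 256, 317 and 445 groups at 0.05, 10 and 1000 µg, and DESeq2 called 0, 1 and 0.

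miR-27b was by far the most read of the miRNAs, at 15802 ± 1891 RPM (SD, n = 15 sows). It was followed by miR-24 at 3319 ± 669, miR-27a at 2489 ± 452, miR-23b at 1146 ± 186 and miR-23a at 850.1 ± 155. The order of the means was thus the same within both clusters, miR-27 above miR-23. Ranges over sows did not overlap between miR-27b and miR-24 or between miR-27a and miR-23b. They overlapped between miR-24 (2466 to 4948) and miR-27a (1786 to 3365) and between miR-23b (868 to 1593) and miR-23a (647 to 1221). A ratio of reads of different miRNAs is not a ratio of molecules, since how well each was captured in library making was not measured here.

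In control sows 1, 2, 3 and 4, miR-23a stood at 1221, 839.7, 727 and 647 RPM. It stood at 806, 1036 and 882 in the sows at 0.05 µg, at 1034, 862, 913 and 695 at 10 µg, and at 824, 681, 845 and 739 at 1000 µg. Control sow 1 was the highest of all and control sow 4 the lowest, so each dose group lay inside the control range. Its partner in the a cluster, miR-27a, which is known for targets in fat cell formation and vessel growth, stood at 2746, 2473, 2040 and 1883 in control sows. It reached 2652, 3365 and 2045 at 0.05 µg, 2629, 2549, 2608 and 2069 at 10 µg, and 3067, 2929, 2492 and 1786 at 1000 µg. Sow 6 (0.05 µg) was the highest and sow 15 (1000 µg) the lowest, and every dose group overlapped the controls.

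In the b cluster, miR-23b stood at 1593, 1123, 988 and 1104 RPM in control sows, with control sow 1 again above all others. It stood at 1297, 1355 and 1214 at 0.05 µg, at 1273, 1202, 1042 and 868 at 10 µg, and at 1108, 1029, 1099 and 901 at 1000 µg. miR-27b stood at 17721, 13717, 13732 and 17562 in control sows, 2 high and 2 low. It stood at 15231, 18224 and 15937 at 0.05 µg, at 15023, 15378, 17751 and 13636 at 10 µg, and at 13476, 18360, 17534 and 13751 at 1000 µg. The dose groups overlapped the control range for both. miR-24, the product of both clusters, stood at 3898, 2828, 2688 and 3112 in control sows, at 3327, 4948 and 3171 at 0.05 µg, at 3305, 3074, 3114 and 2788 at 10 µg, and at 3291, 4526, 3253 and 2466 at 1000 µg. Sows 6 and 13, both of class C, were above every other sow.

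**Figure D1:**
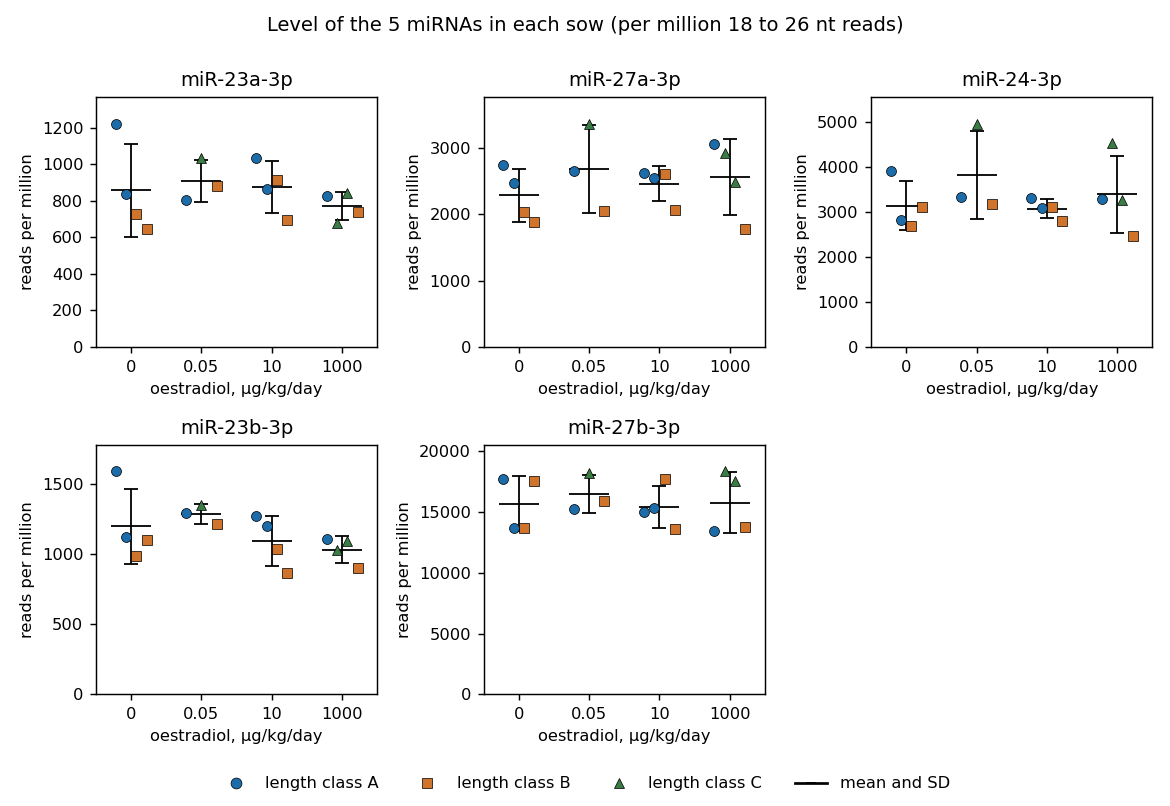
RPM, reads per 1000000 reads of 18 to 26 nt (vertical axes, from 0), of the 5 miRNAs in each sow by daily dose of oestradiol; each point is 1 sow, its shape and colour the read-length class, and the lines are the mean and SD of the group. Every dose group overlaps the control sows in all 5 panels, and the 2 highest sows of miR-24 (4948 and 4526) are of class C.

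None of the 5 miRNAs was called at any dose by edgeR's quasi-likelihood test with Benjamini-Hochberg adjustment over all groups tested. Their adjusted p was at least 0.9997, and 0% of all tested groups were called at 0.05, 10 or 1000 µg or over the 3 doses together. At 0.05 µg the log2 fold changes against control were 0.08 ± 0.27 (SE) for miR-23a, 0.10 ± 0.25 for miR-23b, 0.23 ± 0.27 for miR-27a, 0.08 ± 0.24 for miR-27b and 0.30 ± 0.27 for miR-24. At 10 µg they were 0.14 ± 0.25, -0.0063 ± 0.23, 0.22 ± 0.26, 0.11 ± 0.22 and 0.09 ± 0.25 in the same order. At 1000 µg they were -0.11 ± 0.25, -0.16 ± 0.23, 0.22 ± 0.26, 0.08 ± 0.22 and 0.19 ± 0.25. Both miR-23 forms thus had values below 0 at the highest dose, where both miR-27 forms and miR-24 had values above 0, and none of these passed the test.

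In this fit, which had no read-length class, the 95% confidence intervals of the 15 fold changes lay between -0.64 and 0.86 on the log2 scale. A 2-fold change thus lay outside each interval, taken 1 at a time. The smallest unadjusted p was 0.276, for miR-24 at 0.05 µg. The median log2 fold change of the 5 was 0.10, 0.11 and 0.08 at 0.05, 10 and 1000 µg, beside -0.01, 0.03 and 0.01 over all groups tested. Sows of a dose lay all above or all below the controls for 0 of the 5 miRNAs at each dose, against 3.86%, 1.15% and 2.42% of all groups at 0.05, 10 and 1000 µg. With the read-length class as a covariate, the values of 3 miRNAs at 1000 µg turned negative: miR-27a to -0.05, miR-27b to -0.20 and miR-24 to -0.19. That of miR-27b at 0.05 µg turned to -0.10.

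**Figure D2:**
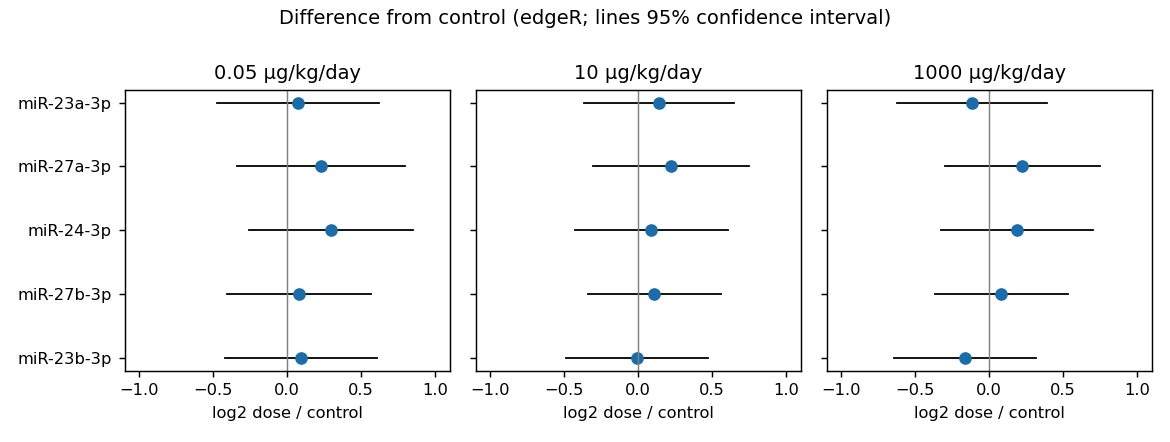
log2 fold change against control (horizontal axes) of the 5 miRNAs at each daily dose, from edgeR; points are estimates and lines their 95% confidence intervals. Every interval covers 0, and all lie between -0.64 and 0.86.

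The use of the a against the b cluster was read as the share of the a form in the a and b reads of 1 library, which needs no scaling between libraries. In every one of the 15 sows the b form was read more than the a form, for miR-23 and for miR-27. For miR-23 the a share was 42.5 ± 2.56% (SD, n = 15; 37.0 to 46.7%), and the b form was 1.35-fold higher. For miR-27 it was 13.6 ± 2.11% (9.68 to 18.5%), and the b form was 6.41-fold higher. An exact two-sided sign-flip permutation test on the log2 ratio of a to b reads (-0.44 ± 0.15 for miR-23 and -2.68 ± 0.26 for miR-27, higher b form in 15 of 15 sows) gave p = 6.1e-05 for both, the smallest it can give, and 6.1e-05 after adjustment over the 2 ratios. In the 4 control sows alone the log2 ratios were -0.50 ± 0.18 and -2.78 ± 0.32. Both pairs of reads come from the same clusters, yet the a share read from miR-27 was below that read from miR-23 in each sow, and the ranges did not overlap.

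The a share of miR-23 was 43.4, 42.8, 42.4 and 37.0% in control sows 1 to 4. It was 38.3, 43.3 and 42.1% at 0.05 µg, 44.8, 41.8, 46.7 and 44.5% at 10 µg, and 42.6, 39.8, 43.5 and 45.1% at 1000 µg. Control sow 4 was the lowest of all 15, and 3 of the 4 sows at 10 µg lay above the highest control. The largest difference from control was at 10 µg, 3.06 percentage points (44.4 ± 2.03 against 41.4 ± 2.98%; exact permutation p = 0.114, adjusted 0.686 over 6 tests). It was 5.90 points within class B, which holds control sow 4, and 0.210 points within class A, with 2 sows on each side in both. Without control sow 4 it was 1.58 points, and with each other sow left out in turn it reached up to 3.94 points.

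The a share of miR-27 was 13.4, 15.3, 12.9 and 9.68% in control sows 1 to 4. It was 14.8, 15.6 and 11.4% at 0.05 µg, 14.9, 14.2, 12.8 and 13.2% at 10 µg, and 18.5, 13.8, 12.4 and 11.5% at 1000 µg. Control sow 4 was again the lowest, and sow 12 (1000 µg) stood above all others. The differences of means from control were 1.102, 0.947 and 1.231 points at 0.05, 10 and 1000 µg, and all had an exact permutation p of at least 0.571 (adjusted 0.720). At 0.05 µg the difference was 0.0542 points without control sow 4 and 2.38 points without sow 7. Groups of 4 sows against 4 cannot give an exact p under 0.0286, nor 3 against 4 one under 0.0571, so after adjustment no single share, ratio or length test could have passed by itself. Within class A, sow 12 was 4.20 points above the mean of the 2 controls. Within class B, sow 15 was 0.184 points above the mean of the 2 controls and lay between them (11.5% beside 12.9 and 9.68%).

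The a share of miR-27 was split by read-length class. It was 13.4 to 18.5% in the 6 sows of class A and 9.68 to 13.2% in the 6 sows of class B, without overlap, and 12.4 to 15.6% in class C. The a share of miR-23 overlapped between classes A (38.3 to 44.8%) and B (37.0 to 46.7%). Sow 7, extracted 2 times, gave a shares of 41.5% (library 7a, class B) and 42.4% (library 7b, class C) for miR-23, and of 10.3% (7a) and 11.98% (7b) for miR-27. A match on the first 19 nt of reads of 19 to 26 nt, chosen after the data were seen, left the classes apart (14.1 to 19.4 and 10.4 to 13.8% for miR-27), as did reads of 21 to 24 nt alone (9.45 to 14.4 and 6.45 to 9.33%). The part of library making in this difference was not tested. Over the 15 sows the a share of miR-23 and that of miR-27, a relation added after the data were seen, gave Pearson r = 0.16 (permutation p = 0.573) and Spearman rho = -0.03 (p = 0.924). Without the 2 sows farthest from the median r was -0.18. It was 0.02 among class A sows and 0.78 among class B sows (6 each, not tested).

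**Figure D3:**
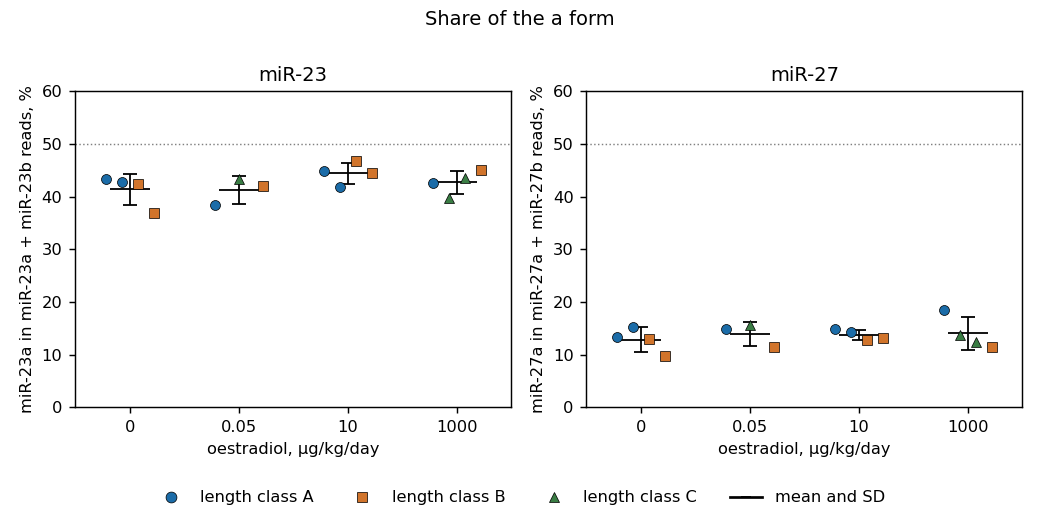
Share of the a form in the a and b reads of miR-23 (left) and miR-27 (right), in percent, in each sow by daily dose. Each point is 1 sow, its shape and colour the read-length class, and lines are the mean and SD. The dotted line marks equal reads of both forms. All 15 sows lie below the dotted line in both panels, at 37.0 to 46.7% and 9.68 to 18.5%.

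Partners cut from the same precursor RNA were read at unequal levels, and more so in the b cluster. There were 2.25 to 4.30 reads of miR-27a for each read of miR-23a (median 2.95 over 15 sows) and 11.1 to 17.8 reads of miR-27b for each read of miR-23b (median 13.4). The ratio of the b cluster was thus above that of the a cluster in every sow, without overlap. miR-24 gave 1.39 to 2.65 reads for each read of miR-23a and miR-23b together (median 1.58), and 0.153 to 0.229 for each read of miR-27a and miR-27b together (median 0.176). By these reads miR-24 stood between its partners, above miR-23 and below miR-27, in all 15 sows.

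The ratio of miR-27a to miR-23a on the log2 scale was 1.17, 1.56, 1.49 and 1.54 in control sows 1 to 4. It was 1.72, 1.70 and 1.21 at 0.05 µg, 1.35, 1.56, 1.51 and 1.57 at 10 µg, and 1.90, 2.10, 1.56 and 1.27 at 1000 µg. At that dose 3 of the 4 lay above all controls, sow 14 only just (1.5595 against 1.5583 in control sow 2). Sow 15 lay below 3 of the controls. The mean difference at 1000 µg was 0.27 (1.71 ± 0.37 against 1.44 ± 0.18; exact permutation p = 0.2, adjusted 0.810 over 12 tests). Within classes the sign was not the same: sow 12 was 0.53 above the mean of the class A controls and sow 15 was 0.24 below that of class B (-0.24). At 0.05 µg the same held, with a pooled difference of 0.10, 0.35 within class A and -0.30 within class B.

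The ratio of miR-27b to miR-23b was 3.48, 3.61, 3.80 and 3.99 on the log2 scale in control sows 1 to 4. It was 3.55, 3.75 and 3.71 at 0.05 µg, 3.56, 3.68, 4.09 and 3.97 at 10 µg, and 3.604, 4.157, 3.996 and 3.93 at 1000 µg. By class, class A lay at 3.48 to 3.68, class B at 3.71 to 4.09 and class C at 3.75 to 4.16. The differences from control were -0.05, 0.11 and 0.20 at 0.05, 10 and 1000 µg, with an exact permutation p of at least 0.286 (adjusted 0.810). The values at 1000 µg were 0.06 in class A and 0.04 in class B, and the group's 2 class C sows had no control to be set against.

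miR-24 to miR-23 differed from control by 0.15, 0.03 and 0.26 on the log2 scale at 0.05, 10 and 1000 µg, and miR-24 to miR-27 by 0.17, -0.01 and 0.07. None of the 12 ratio tests passed (adjusted exact permutation p of at least 0.810). For miR-24 to miR-23 at 1000 µg, sow 13 had the highest log2 ratio of all sows (1.40), and the other sows of the dose had 0.77, 0.74 and 0.59, beside 0.47, 0.53, 0.65 and 0.83 in the controls. That difference was 0.27 among class A sows and -0.15 among class B sows.

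**Figure D4:**
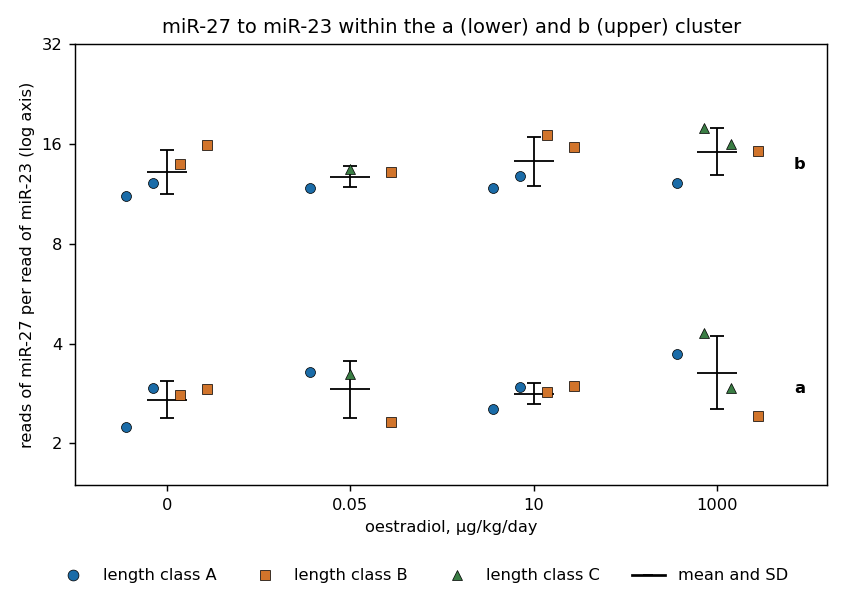
Reads of miR-27 for each read of miR-23 (log axis) in each sow by daily dose, for the a cluster (lower points, 2.25 to 4.30) and the b cluster (upper points, 11.1 to 17.8); each point is 1 sow, its shape and colour the read-length class, and lines are the mean and SD on the log2 scale. The 2 sets of points do not overlap, and in the b cluster the class A sows lie lowest.

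The 3′ ends, beyond the 20 nt used for the match, also set the miRNAs apart. The leading reads of the miR-27 forms are shown because they end differently although their first 20 nt differ by 1 base; capitals mark bases after position 20.
miR-27a-3p read 1: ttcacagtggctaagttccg
miR-27a-3p read 2: ttcacagtggctaagttccgA
miR-27a-3p read 3: ttcacagtggctaagttccgT
miR-27a-3p read 4: ttcacagtggctaagttccgAT
miR-27b-3p read 1: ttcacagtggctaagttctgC
miR-27b-3p read 2: ttcacagtggctaagttctg
miR-27b-3p read 3: ttcacagtggctaagttctgCA
Of the miR-27a reads, 40.3 ± 3.64% (SD, n = 15 sows) ended at base 20, and 15.9, 7.19 and 6.46% were the next 3 in the order shown. Of the miR-27b reads, 53.5 ± 2.63% had C as a last, 21st base, 13.4% ended at base 20 and 9.44% ended in CA. Among reads that reached base 21, miR-27a had A in 52.3%, T in 29.3% and C in 17.2%, while miR-27b had C in 84.6%. No hairpin sequence was used here, so bases copied from the gene and bases added later were not separated.

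miR-23b was the longest, with a mean read length of 22.7 ± 0.107 nt (SD, n = 15), and 42.8 ± 3.71% of its reads were 24 nt long. miR-23a had a mean of 21.5 ± 0.0397 nt, and 46.5 ± 2.36% of its reads were 21 nt long. The leading miR-23b read (33.7% of its reads) went on to CACT after base 20, and the leading miR-23a read (42.9%) ended with C at base 21. For miR-24 the lengths had 2 peaks, with 45.9 ± 3.12% of reads at 20 nt and 23.7 ± 3.08% at 23 nt. Mean lengths of miR-27a, miR-27b and miR-24 were 21.1 ± 0.104, 21.2 ± 0.0305 and 21.3 ± 0.0946 nt. None of 15 tests of mean length by dose passed (adjusted exact permutation p of at least 0.918), and the differences from control lay between -0.069 and 0.085 nt. Mean lengths of miR-23a were 21.508 to 21.575 nt in class A and 21.438 to 21.48 in class C. Those of miR-27a were 21.103 to 21.265 and 20.87 to 21.093. Class B overlapped both classes, at 21.465 to 21.517 for miR-23a and 21.061 to 21.156 for miR-27a. For miR-23b, miR-27b and miR-24 classes A and C overlapped. No control sow was of class C.

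Since so many miR-27a reads end at base 20, its level and share depend on the lengths counted. Reads of 19 nt, which the match leaves out, made up 7.01% of the 19 to 26 nt reads of miR-27a, 5.85% of those of miR-27b, 4.40% of those of miR-23a, 0.540% of those of miR-23b and 0.575% of those of miR-24. With reads of 21 to 24 nt alone, the a share of miR-27 was 9.76 ± 1.91% (n = 15) instead of 13.6%, and that of miR-23 was 41.4 ± 2.51%. With the first 19 nt they were 14.3 ± 2.16% and 43.6 ± 2.48%. The b form stayed above the a form in each of these settings, since the highest a share was 47.6%.

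**Figure D5:**
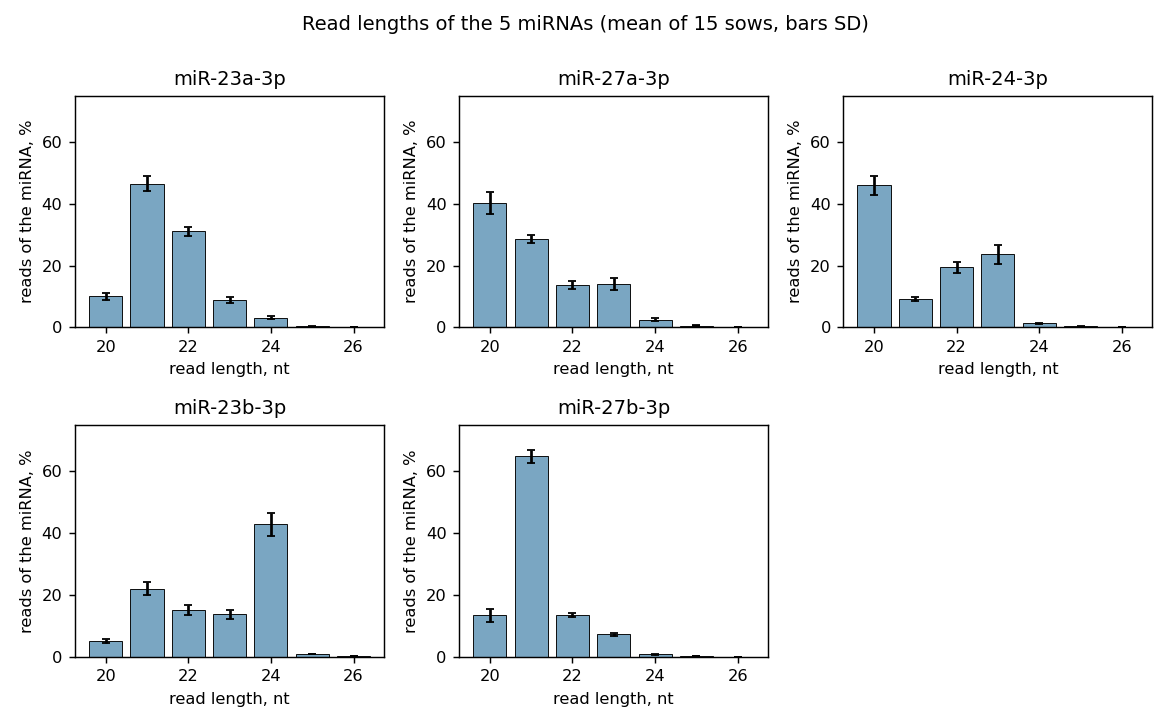
Share of the reads of each miRNA (vertical axes, percent) by read length from 20 to 26 nt; bars are means of 15 sows and error lines the SD. miR-23b peaks at 24 nt (42.8%), miR-27b at 21 nt (64.8%) and miR-27a and miR-24 at 20 nt (40.3 and 45.9%).

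The passenger (5p) arms were rare. All sows together held 35 reads of miR-23a-5p (0 in 2 sows, at most 5 in 1 sow), 602 of miR-23b-5p, 1349 of miR-27a-5p and 545 of miR-27b-5p. The main reads of the miR-27 arms are shown because the a and b forms are easily told apart there, with the seed in capitals.
miR-27a-5p: aGGGCTTAgctgcttgtgagca
miR-27b-5p: aGAGCTTAgctgattggtgaac
miR-27a-5p was read more than miR-27b-5p in 15 of 15 sows, 1.44 to 3.48 reads for 1 (median 2.43), the reverse of the order of the 3p arms. For miR-23 the b form led in the 5p arm as in the 3p arm, with 16 reads or more in each sow. There were 117 to 259 reads of the 3p arm for each read of the 5p arm of miR-27a (median 180), and 1900 to 4033 for miR-27b (median 2681), so the arms of miR-27b were the less equal in every sow. For miR-23b the ratio was 101 to 276 (median 175), and for miR-23a, over all sows summed, 2214.

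Enough reads for the test were found for 4 of the 5p arms, miR-23b-5p, miR-27a-5p, miR-27b-5p and the more frequent form of miR-24-5p, and edgeR called none at any dose (adjusted p of at least 0.9997). miR-27b-5p at 0.05 µg had the smallest unadjusted p, 0.067, with a log2 fold change of 0.61 ± 0.32 (95% interval -0.05 to 1.27). It stood at 8.02, 8.99 and 6.44 RPM at that dose, beside 6.91 in control sow 1 and 4.35 to 4.61 in the other controls. Form 2 of miR-24-5p had log2 fold changes of 0.06 ± 0.53, -0.61 ± 0.50 and -0.25 ± 0.52 at 0.05, 10 and 1000 µg. The 95% intervals of all 4 arms covered 0 at each dose.

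The 5p arm is where the miR-24 genes differ, so it bears on which cluster gives miR-24. Both forms share the seed, marked in capitals, and differ towards the 3′ end.
miR-24-5p form 1: tGCCTACTgagctgatatca
miR-24-5p form 2: tGCCTACTgagctgaaacaca
Form 2 made up 135 of 206 reads, or 65.5% (95% Wilson interval 58.8 to 71.7%, counting error only), and it held the majority in 13 of 15 sows. Neither form was tied to a gene, since no hairpin sequence was used here. Form 2 was 60, 72.7, 63.6 and 54.5% of 11 to 22 reads in control sows. Its mean was 64.4 ± 15.03% at 0.05 µg, 65.6 ± 18.6% at 10 µg and 73.1 ± 10.02% at 1000 µg, against 62.7 ± 7.64% in control (exact permutation p of at least 0.171, adjusted 0.514). Each sow had only 6 to 30 reads of both forms.

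Across the 15 sows, the log2 levels of miR-23a and miR-23b, which come from different clusters, were correlated (Pearson r = 0.80, adjusted permutation p = 0.0019 over 10 pairs; Spearman rho = 0.71, adjusted 0.0205). Both pairs of miR-27 with miR-24, which are cut from the same precursors, also passed by r. miR-27a with miR-24 gave r = 0.79 (adjusted permutation p = 0.0019; rho = 0.86, adjusted 0.001), and miR-27b with miR-24 gave r = 0.73 (adjusted permutation p = 0.0031; rho = 0.59, adjusted 0.0557). Without the 2 sows farthest from the median of the first-named, these r were 0.78, 0.78 and 0.62. Within classes A and B (6 sows each) they were 0.84 and 0.43 for miR-23a with miR-23b, 0.49 and 0.51 for miR-27a with miR-24, and 0.78 and 0.85 for miR-27b with miR-24.

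The partners miR-23 and miR-27 of 1 cluster did not pass: r was 0.54 for miR-23a with miR-27a (adjusted permutation p = 0.0616; rho = 0.45, adjusted 0.154) and 0.44 for miR-23b with miR-27b (adjusted permutation p = 0.141; rho = 0.28, adjusted 0.307). For miR-23b with miR-27b r was 0.96 among the class A sows and 0.71 among those of class B, above the pooled value in both. For miR-23a with miR-27a it was 0.03 and 0.69. Of the other 5 pairs, only miR-23b with miR-24 passed by rank (rho = 0.66, adjusted permutation p = 0.0297; r = 0.59, adjusted 0.0556). RPM values of 1 library share their denominator. With TMM scaling, a scaling by the bulk of the groups, all 10 values of r rose, to between 0.64 and 0.89. They were 0.75 for miR-23a with miR-27a and 0.71 for miR-23b with miR-27b. The same factor is taken from both miRNAs of a sow, which can by itself raise r, so this rise says nothing about partners. It was also seen across clusters, from 0.29 to 0.64 for miR-23a with miR-27b.

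Among 401 other groups with a mean of at least 100 RPM, the most abundant group of each seed, those most like each miRNA in log2 level over the 15 sows were ranked by r, as a description. For miR-24 the nearest was gGTGCAGTgctgcatctctg (r = 0.94, no listed seed), followed by miR-22-3p (0.86). For miR-27a it was cGTACCGTgagtaataatgc (0.90), a read of miR-126-3p that starts 1 base later, and the main miR-126-3p group was the third (0.85). A group with no listed seed stood second for miR-27a (0.88). The miR-126-3p read that starts 1 base later was also the third for miR-24 (0.86), so this likeness was not particular to miR-27a. miR-126 is known as a miRNA of endothelial cells. The first group for miR-24 (0.94) and the second for miR-27a (0.88) had no name here and were not traced to a cell type. miR-23a was nearest to a group with the seed of miR-15 and miR-16 (0.76), miR-23b to miR-145-5p (0.74), a smooth muscle miRNA, and miR-27b to the seed of miR-99 and miR-100 (0.77). The group nearest to miR-24 was also the third for miR-27b (0.72). It was given no name, since no table of mature miRNAs was used here. All these values share library and depth.

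A list of 11 seed families linked to blood vessel growth, chosen with earlier results known, was looked up in the same fit, each as its most abundant 20-nt read group and not as the sum of its seed. edgeR called 0 of 11 at each dose. Values were above 0 for 8, 11 and 7 of 11 at 0.05, 10 and 1000 µg, beside 49.2, 54.5 and 51.5% of all groups, and their medians were 0.09, 0.22 and 0.03, beside -0.01, 0.03 and 0.01. The leading group with the seed of miR-221 and miR-222, known as brakes on endothelial cell growth, had a log2 fold change of 0.57 at 0.05 µg (unadjusted p = 0.041). The leading group with the seed of miR-378-3p had 0.70 at 10 µg (unadjusted p = 0.0176). These were the only families with an unadjusted p under 0.05 among the 11 at the 3 doses, and their adjusted p from edgeR was at least 0.9997. The endothelial miR-126-3p had 0.14, 0.19 and 0.22 at the 3 doses (unadjusted p of at least 0.431).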

How the data were processed

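The deposited files give, for each library, every distinct read sequence of 17 to 49 nt with its raw count, and the authors applied no normalization to these counts. FastQC is named in the submitters' processing notes, which list the genome builds GRCm38, UMD3.1, Sscrofa10.2 and GRCh37.p5 without saying what each was for. An aligner and an adapter step are not given in the sources used here. TRIzol extraction and library making with a NEBNext small RNA set are stated in the labels' protocols.

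Reads of 20 to 26 nt were grouped by their first 20 nt, and groups with at least 30 reads were kept. The library size was the total of 18 to 26 nt reads. Of 23707 groups, 9951 passed filterByExpr and held 84.3% of the 18 to 26 nt reads. Counts were fitted with edgeR 4.0.16 (R 4.3.3; quasi-likelihood, TMM factors 0.804 to 1.17) with dose as a factor over 15 sows, and p-values were adjusted by Benjamini-Hochberg over all groups. DESeq2 1.42.0 was an alternative. On simulated data the fit recovered 9, 12 and 19% of 2-fold and 75, 86 and 82% of 4-fold changes at 0.05, 10 and 1000 µg among 9552 to 9553 groups. Shares, log2 ratios and mean lengths were compared by two-sided exact permutation of group means (scipy 1.17.1), and correlations by 100000 resamples. A member was the most abundant group with its seed and, for miR-23 and miR-27, its base 19. The miRNAs always named were the 5 members and their 5p arms. Beside them stood the 3 groups most alike each and vessel-linked families with an unadjusted p under 0.05. For the groups most alike, the planned table of mature miRNAs was replaced by read groups with no stretch of 12 bases in common with the member, and only the leading ones are printed. The members and lists were chosen with earlier results of these data known.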

Additional observations from a re-analysis of the deposited data

Results flagged for a closer look

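In groups of 4 sows, 1 sow stood far from the other 3 in 3 of 48 cases examined, where chance alone marks about 1 group in 20. Control sow 4 had an a share of miR-23 of 37.0%, and the other controls had 42.4 to 43.4%. At 1000 µg, sow 12 had a mean length of miR-23b reads of 22.9 nt (22.871), and the others had 22.6 nt (22.597 to 22.641). At 10 µg, sow 11 had 2069 RPM of miR-27a, and the others had 2549 to 2629.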

How the results depend on the processing

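The b form of miR-23 and of miR-27 stayed above the a form with other read lengths, the first 19 nt and 1 library of sow 7 alone. It led in each of the 15 sows, so taking each class or leaving out each sow could not have turned this. With a sow left out, log2 a to b was -0.45 to -0.41 and -2.72 to -2.64. In edgeR and DESeq2, none of the 5 miRNAs or the tested 5p arms passed under any alternative. The exact tests of shares, ratios and lengths say nothing about stability, since no single one could pass after adjustment, nor with 3 sows against 4 before it. Over all groups, DESeq2 called 1 group at 10 µg and 2 over the doses together, edgeR with no filterByExpr called 1 in each of these, a fit of only the 2 groups called 1 at 1000 µg, and leaving out 1 sow gave 0 to 1 at 10 µg, the 1 without sow 8. None of these was one of the 5 miRNAs. Over all alternatives the sign of a single value turned 63 times. The cause was not tested.

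Without TMM, miR-27b and miR-24 at 10 µg were -0.022 and -0.028 (log2 fold change). With the class as a covariate, miR-27b and form 2 of miR-24-5p at 0.05 µg were -0.10 and -0.18, and miR-27a, miR-27b, miR-24 and miR-27b-5p at 1000 µg were -0.047, -0.20, -0.19 and -0.11. With library 7a alone, miR-23a and miR-23b at 0.05 µg were -0.039 and -0.0089, and the length of miR-23a differed by 0.0049 nt. With 7b alone, form 2 at 0.05 µg was -0.062. With reads of 21 to 24 nt, the a share of miR-23 at 0.05 µg differed by 0.074 points.

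With each sow left out in turn, the log2 fold changes at 0.05 µg ran from -0.11 to 0.30 for miR-23a, -0.022 to 0.27 for miR-23b, -0.060 to 0.40 for miR-27a, -0.082 to 0.17 for miR-27b, -0.028 to 0.43 for miR-24, -0.024 to 0.32 for miR-27a-5p and -0.52 to 0.36 for form 2. At 10 µg they ran from -0.018 to 0.37 for miR-23a, -0.17 to 0.17 for miR-23b, 0.091 to 0.35 for miR-27a, 0.0052 to 0.22 for miR-27b and -0.016 to 0.22 for miR-24. At 1000 µg they ran from -0.28 to 0.11 for miR-23a, -0.26 to 0.014 for miR-23b, 0.082 to 0.40 for miR-27a, -0.074 to 0.19 for miR-27b, -0.067 to 0.35 for miR-24, -0.010 to 0.29 for miR-27a-5p, -0.0069 to 0.32 for miR-27b-5p and -0.57 to 0.012 for form 2.

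In the same way, the a share of miR-23 differed from control by -1.61 to 1.33 points at 0.05 µg and -0.104 to 2.35 at 1000 µg, and that of miR-27 by 0.0542 to 2.38 at 0.05 µg, -0.101 to 1.76 at 10 µg and -0.263 to 2.09 at 1000 µg. On the log2 scale, miR-27b to miR-23b at 0.05 µg ran from -0.13 to 0.045. At 10 µg miR-27a to miR-23a ran from -0.029 to 0.11, miR-24 to miR-23 from -0.030 to 0.10 and miR-24 to miR-27 from -0.056 to 0.042. At 1000 µg miR-24 to miR-27 ran from -0.0091 to 0.13. Mean lengths in nt at 0.05 µg ran from -0.0373 to 0.0110 for miR-23a, -0.102 to 0.0408 for miR-27a and -0.0238 to 0.0724 for miR-24. At 10 µg they ran from -0.0338 to 0.00071 for miR-23a, -0.0648 to 0.0280 for miR-23b, -0.0043 to 0.0442 for miR-27a and -0.0955 to 0.0039 for miR-24. At 1000 µg they ran from -0.0831 to 0.0082 for miR-23b, -0.0960 to 0.0327 for miR-27a and -0.0275 to 0.0050 for miR-27b.

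No paired analysis was possible because the dose groups share no replicate number. Counts per annotated miRNA and reads starting 1 nt earlier or later were not run, since no table of miRNA sequences was used here. Depth limits miR-23a-5p and form 1 of miR-24-5p, which had too few reads for the test. At 0.05 µg, 3 sows against 4 could not pass an exact test. Simulated 2-fold changes, placed in groups drawn from all groups tested, were mostly missed at these group sizes, so smaller changes of such groups would be too. The recovery was not measured for the 5 miRNAs themselves.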
